A study of Mus musculus with 16 samples.

Results

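The translation initiation and elongation factors of skeletal muscle are described here as 65 genes of the 12021 in the deposited expression table, namely every listed gene whose mouse symbol begins with Eif or Eef. The choice used names alone and no measured value. The pseudogene Eif4a-ps4, whose symbol also begins with Eif, was left out by the same rule. The set holds 14 subunit genes of eIF3, 8 genes of start codon selection and subunit joining, 7 of the cap-binding and scaffold group, and 6 each of eIF2 with its helpers and of elongation factor 1. It also holds 5 genes of eIF2B, 5 of the eIF4A helicases and their cofactors, 4 kinases of eIF2α, 2 genes each for the 4E-BP proteins, eIF5A, and eEF2 with its kinase, and 4 for the selenocysteine elongation factor and factor methyltransferases.

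RNA of the tibialis anterior, a shin muscle rich in fast fibres, was sequenced after depletion of ribosomal RNA in 16 libraries of mice from 4 models of cancer cachexia, the wasting of muscle and fat that accompanies tumours. The KPP and LLC mice were C57BL/6J, the C26 mice were CD2F1, and the KPC mice were of mixed strain. Each model had 2 control and 2 cachectic libraries, and every comparison set cachectic muscle against the controls of its own model. The labels give the models by these names only, with no allele, tumour site, age or treatment. Model and strain cannot be told apart between C26 or KPC and the others. The labels number separate mice for the cachectic KPC, C26 and LLC libraries but do not say how the control or KPP libraries were sampled, so p-values measure the spread between these samples, which may in part be technical.

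A protein chain begins when eIF2 brings the initiator tRNA to the small ribosomal subunit, eIF3 holds that complex together, and the eIF4F complex of eIF4E, eIF4G and eIF4A recruits it to the capped mRNA. Initiation is held back when a kinase phosphorylates eIF2α, which blocks its exchange factor eIF2B, or when a 4E-BP protein covers eIF4E, a grip that the kinase complex mTORC1 releases by phosphorylation. eEF1A then delivers each aminoacyl-tRNA and eEF2 moves the ribosome on, and the balance between this synthesis and protein breakdown sets the mass of a muscle fibre.

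In cachectic muscle the transcripts of these factors were mostly higher than in controls, with a median change over the 65 genes of 0.42 on the log2 scale in C26, 0.38 in LLC, 0.09 in KPC and 0.04 in KPP. The corresponding medians of all genes were 0.28, 0.10, 0.01 and 0.00. Eif4ebp1, which encodes the eIF4E inhibitor 4E-BP1, had the largest increase of the 65 genes in each of the 4 models, and its target Eif4e was the one factor that fell in the mean of the models. Averaged over the models with equal weight, 31 of 65 genes rose (47.7%, against 27.3% of all genes) and 1 fell (against 13.8% of all genes), at an adjusted p under 0.05 by limma with Benjamini-Hochberg adjustment over all 12021 genes. At an unadjusted p under 0.05 the count was 38, against 51.2% of all genes. Of the 31 that rose, 26 were higher in all 4 models and 5 in 3. They were picked by the mean of the same 4 changes, which favours such agreement. Over all 65 genes 32 were higher in all 4 models and 18 in 3, and the share of all genes was not counted. The median mean change of the 65 genes was 0.23 on the log2 scale, against 0.10 for all genes. When each library was centred on its own median, 21 genes rose (19.8% of all genes) and 1 fell (18.8% of all genes). Eif4e was the gene that fell in both.

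All 65 genes passed the filter on low values, with 56 reads or more in every library. Library totals ran from 28584279 to 46972882 reads, and the 65 genes together took 0.568 to 0.613% of the reads of control libraries and 0.567 to 0.946% of those of cachectic libraries. LLC cachectic library 1 and KPC cachectic library 2 stood apart from their partners. In LLC cachectic library 1 the median factor gene was 0.61 above its controls, against 0.11 in library 2. In KPC the median gene was 0.24 above in cachectic library 1 and at -0.06 in library 2. The difference between the 2 libraries of a group also varied more from gene to gene there. Its SD over the 65 genes, which leaves out a shift they share, was 0.458 in LLC cachectic muscle and 0.393 in KPC cachectic muscle. In the other 6 groups it was 0.110 to 0.240. The same held for the whole table, where the SD over all genes was 0.561 in LLC cachectic muscle, 0.534 in KPC cachectic muscle and 0.239 to 0.359 in the other groups. Mitochondrially encoded RNA took 9.10 to 13.04% of the reads of controls and 5.73 to 12.3% of those of cachectic libraries, and KPC cachectic library 2 held the highest cachectic share.

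The fast-fibre genes were the most abundant markers by far, at 105570 to 114280 reads per 1000000 in controls and 89816 to 116605 in cachectic libraries for the sum of 6. Markers of other cells moved with cachexia. The 5 erythroid genes summed to 144 to 292 reads per 1000000 in controls and 329 to 3263 in cachectic libraries, the highest values being those of LLC. The 7 macrophage genes summed to 47.7 to 113 in controls and 61.8 to 198 in cachectic libraries, with both C26 libraries highest, and the 5 endothelial genes to 281 to 369 and 305 to 454. The 5 fibroblast genes summed to 672 to 1622 in controls and 273 to 984 in cachectic libraries. These sums hide mixed lists. Of the 5 fibroblast genes 3 fell in the mean of the models (13.8% of all genes did) and 2 had changes above 0. After centring, Col1a1, Col3a1 and Lum changed by -3.15, -2.17 and -0.81, and Pdgfra and Dcn by 0.12 and 0.01. Of the 5 endothelial genes 3 rose in the mean and 1 fell (27.3% and 13.8% of all genes did). No marker was at 0 in any library, the part of these shifts in the factor transcripts was not tested, and in whole muscle fewer cells of a type and less RNA per cell cannot be told apart.

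**Figure D1:**
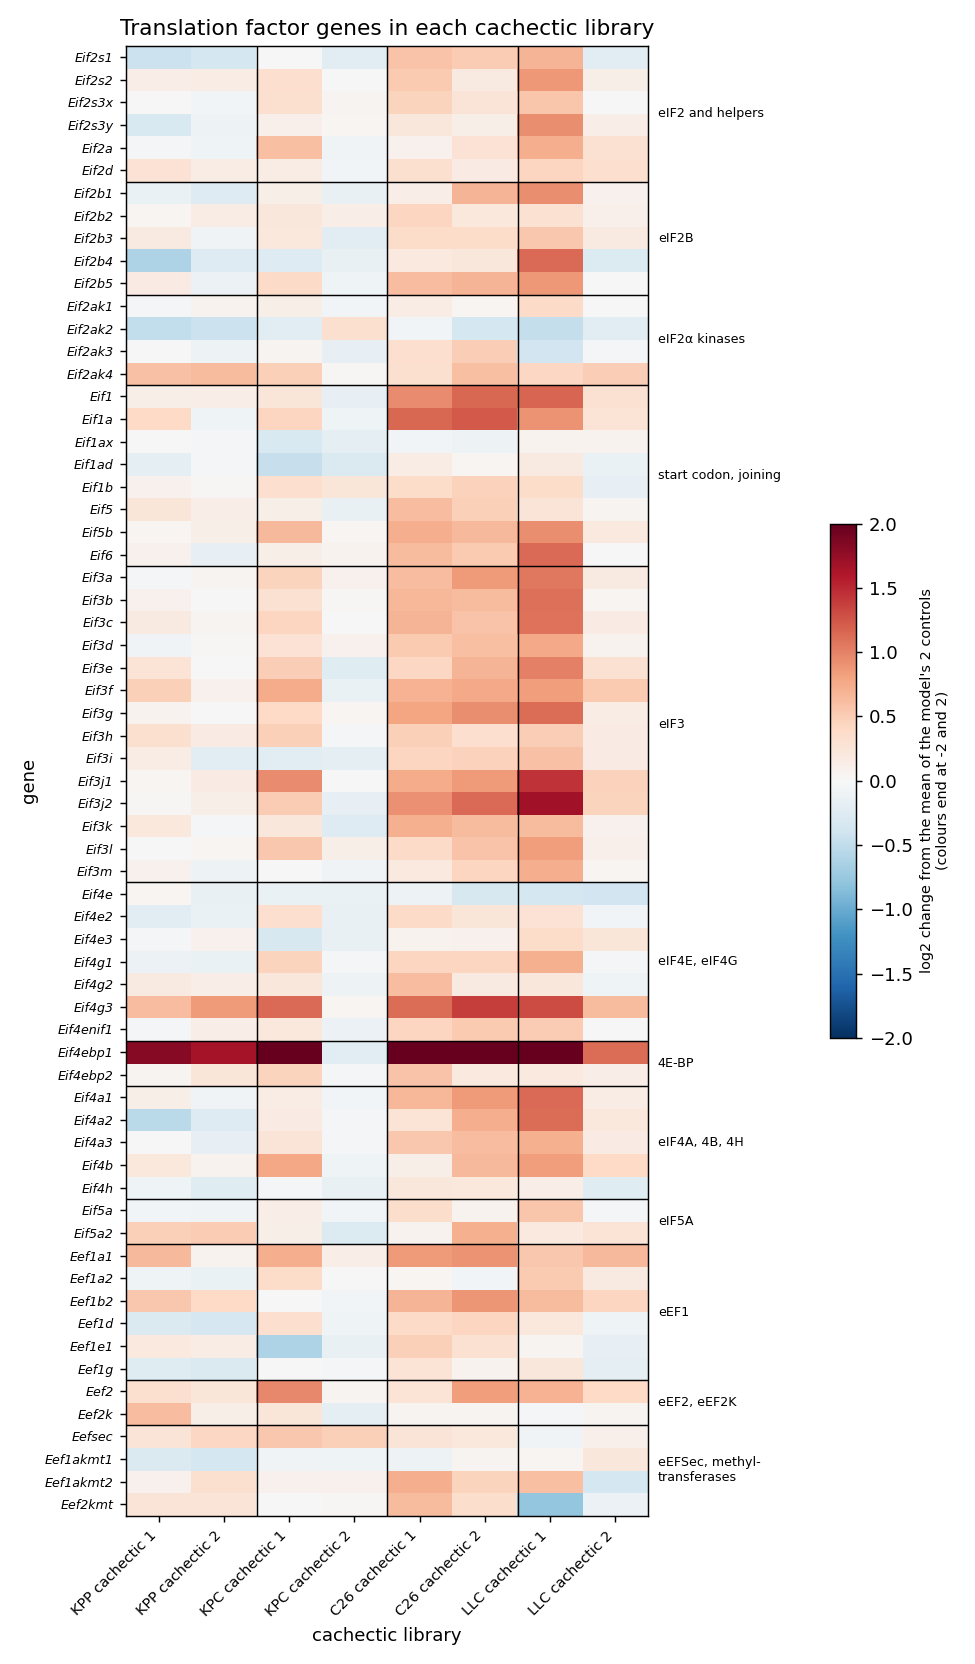
Each row is one of the 65 factor genes, grouped by role, and each column one cachectic library; colour gives the log2 change from the mean of that model's 2 controls, with colours ending at -2 and 2. The C26 columns and LLC cachectic library 1 are mostly red, KPC cachectic library 2 is near white with a median of -0.06, and Eif4ebp1 is the darkest row.

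By model, no factor gene passed the test in KPP, where 0.707% of all genes rose and 1.07% fell (0.865% and 0.749% after centring), and 6 had an unadjusted p under 0.05 against 21.1% of all genes. None passed in KPC, where 0% of all genes were called in either direction, and 3 had an unadjusted p under 0.05 against 8.61% of all genes. In C26, 17 rose against 23.2% of all genes, a share of 26.2%, and none fell against 5.12%; 36 had an unadjusted p under 0.05 against 44.4%. The C26 change of the median gene of the whole table was itself 0.28, and after centring 6 factor genes rose (6.99% of all genes) and 1 fell (9.25%). In LLC, 1 gene rose, Eef1b2, against 3.42% of all genes, and none fell against 3.66%, while 32 had an unadjusted p under 0.05 against 29.3%. After centring 3 rose in LLC (3.6% of all genes) and 1 fell (4.77%).

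In C26 and LLC the direction of change was more uniform than these calls, while in KPP and KPC the factor genes moved in either direction. Both C26 cachectic libraries lay above both controls for 59 of 65 factor genes, against 59.6% of all genes, and both lay below for 2, against 16.9%. In LLC the counts were 38 above and 3 below, against 33.8% and 23.6% of all genes. KPP had 21 above and 15 below, against 28.9% and 29.7%, and KPC 13 above and 9 below, against 15.8% and 22%. Eef2, Eif4g3 and Eif5b were the only 3 of the 65 genes for which the cachectic libraries lay above the controls in all 4 models. In KPP, C26 and LLC 15 of the 65 did so. The shares of all genes that did so in several models were not counted, so these counts cannot be set against the whole table.

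**Figure D2:**
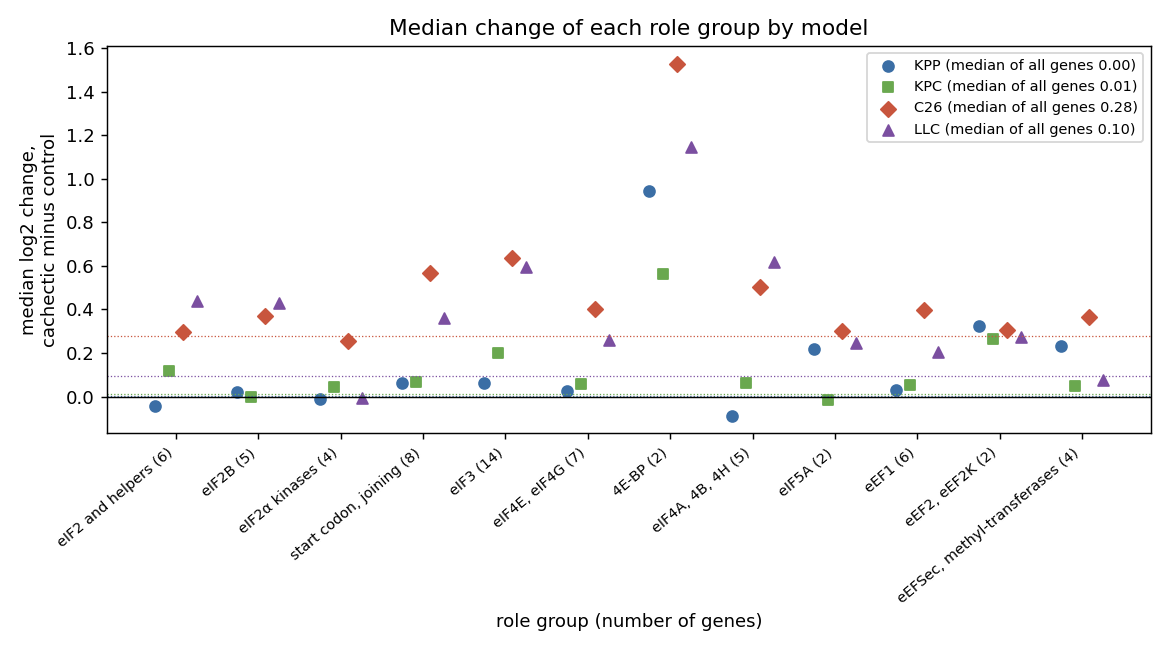
Each point is the median log2 change, cachectic minus control, of the genes of one role in one model; dotted lines mark the median change of all genes in that model. The eIF3 group sits at 0.64 in C26 and 0.60 in LLC but at 0.06 in KPP and 0.20 in KPC.

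The 250 bases before the transcription start are shown for 2 factors that rose, Eef2 and Eif3f, and for the one that fell, Eif4e, because all 3 hold the hexamer CACGTG, the canonical E-box, in capitals. The sequences are RefSeq's on GRCm38.p6, plus strand, at chr10:81176381-81176630, chr7:108934165-108934414 and chr3:138527018-138527267, the last being 1 of 2 listed Eif4e starts.
Eef2: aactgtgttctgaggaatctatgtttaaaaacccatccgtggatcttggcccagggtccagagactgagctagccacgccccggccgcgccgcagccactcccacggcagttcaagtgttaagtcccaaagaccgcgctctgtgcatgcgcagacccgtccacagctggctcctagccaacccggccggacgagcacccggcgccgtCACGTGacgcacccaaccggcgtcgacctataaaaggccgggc
Eif3f: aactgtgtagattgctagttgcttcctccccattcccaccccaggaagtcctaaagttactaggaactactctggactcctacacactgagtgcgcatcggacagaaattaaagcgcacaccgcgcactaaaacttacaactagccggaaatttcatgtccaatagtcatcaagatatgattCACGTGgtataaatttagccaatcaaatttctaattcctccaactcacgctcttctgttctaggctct
Eif4e: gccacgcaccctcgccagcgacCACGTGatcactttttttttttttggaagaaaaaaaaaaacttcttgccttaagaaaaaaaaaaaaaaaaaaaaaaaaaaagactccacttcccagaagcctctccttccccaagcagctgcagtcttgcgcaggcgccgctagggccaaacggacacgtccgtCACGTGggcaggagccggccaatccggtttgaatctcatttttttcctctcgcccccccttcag
The E-box begins 43 bases before the start in Eef2 and 68 before it in Eif3f, and Eif4e holds 2, beginning 228 and 64 bases before the start. The hexamer reads the same on both strands, and no other motif was searched. Of the 65 genes, 52 matched the promoter table, and 14 of their 67 starts (20.9%) held CACGTG between 250 bases before and 50 after the start, against 2349 of 32851 starts of all genes (7.15%). The 12 factor genes with an E-box moved in different ways: 5 rose in the mean of the models, 1 fell and 6 did not pass the test, while 26 of the 52 matched genes rose. A match describes the letters only, and binding was not measured.

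The eIF4E-binding proteins gave the largest change. Eif4ebp1 stood at log2 values, in reads per 1000000, of 3.89 and 4.22 in the KPP controls and 5.88 and 5.71 in the KPP cachectic libraries. In KPC it stood at 3.95 and 4.01 in controls and 6.01 and 3.77 in cachectic libraries. In C26 it went from 4.49 and 4.53 to 6.85 and 7.52, and in LLC from 4.41 and 4.26 to 7.47 and 5.46. All cachectic libraries lay above every control of the series except KPC cachectic library 2, which lay below every control. The mean change was 1.86 ± 0.32 (log2, SE of the limma fit), or 3.64-fold, with an adjusted p of 0.0014. This SE comes from the spread between libraries of a group, pooled over the groups, and not from the spread between models. The change was 2.67 ± 0.63 in C26, or 6.38-fold (adjusted p = 0.014), 2.13 in LLC (adjusted p = 0.059), 1.74 in KPP (0.14) and 0.91 in KPC (0.66), so that C26 alone passed the test within a model. The mean was 1.89 without KPC cachectic library 2 and LLC cachectic library 1 together. Eif4ebp2, which encodes the related 4E-BP2, rose by far less, with a mean change of 0.23 (adjusted p = 0.044) that did not pass after centring and was lost in 11 of 16 fits that each left out 1 library.

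Eif4e, the cap-binding protein itself, moved the other way. It stood at 6.14 and 6.09 in the KPP controls and 6.15 and 5.96 in KPP cachectic libraries, and at 6.22 and 6.29 against 6.12 and 6.13 in KPC. In C26 it went from 6.21 and 6.14 to 6.07 and 5.85, and in LLC from 6.04 and 5.96 to 5.64 and 5.62. The groups did not overlap in KPC, C26 and LLC and overlapped in KPP. Its mean change was -0.20 ± 0.06 (SE of the limma fit), a level 0.873 of the control (adjusted p = 0.019). It fell in C26 and in LLC after centring, by 0.45 and 0.43 (adjusted p = 0.023 and 0.041). The call in the mean was lost without C26 control 1 or LLC control 1, where the adjusted p reached 0.051. Per exon length, scaled to a sum of 1000000 over the listed genes, the control level of Eif4e was 33.1 (range 28.5 to 35.5 over 8 libraries) and that of Eif4ebp1 24.3 (19.2 to 29.9).

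The ratio of the 2 transcripts does not depend on scaling between libraries. The log2 ratio of Eif4ebp1 to Eif4e reads was between -2.28 and -1.60 in the 8 controls. It rose to -0.27 and -0.25 in KPP cachectic libraries, to 0.78 and 1.67 in C26 and to 1.83 and -0.16 in LLC, whereas KPC gave -0.11 and -2.35. Thus 7 of 8 cachectic libraries lay above all controls. The mean change of the ratio was 2.06 (1.80 in KPP, 1.05 in KPC, 2.89 in C26 and 2.49 in LLC), with p = 0.0046 by a two-sided exact permutation test within models, 0.0046 after adjustment over 2 ratios, where the smallest p the design allows is 0.0015.

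**Figure D3:**
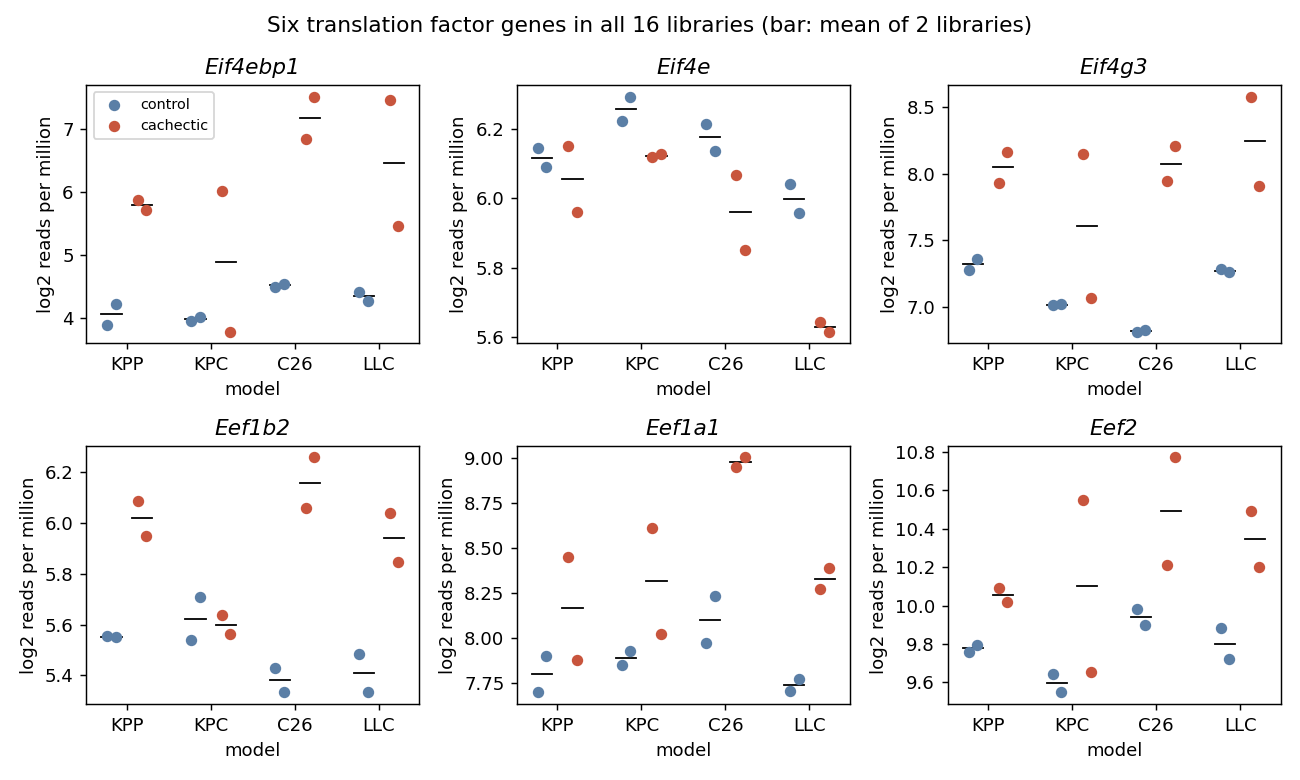
Log2 reads per 1000000 of Eif4ebp1, Eif4e, Eif4g3, Eef1b2, Eef1a1 and Eef2 in all 16 libraries, by model, with controls in blue, cachectic libraries in red and a bar at the mean of 2. In C26 and LLC the red points of Eif4ebp1 reach 7.52 and 7.47 while those of Eif4e lie below the blue ones, and KPC cachectic library 2 lies from -0.20 (Eif4ebp1) to 0.13 (Eef1a1) from the mean of its controls.

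Among the scaffolds of the cap-binding complex, Eif4g3 rose and its paralogue Eif4g1 did not pass the test. Eif4g3 stood at 7.28 and 7.36 in KPP controls and 7.93 and 8.17 in cachectic libraries, at 7.01 and 7.02 against 8.15 and 7.06 in KPC, at 6.81 and 6.83 against 7.94 and 8.21 in C26, and at 7.28 and 7.26 against 8.58 and 7.91 in LLC. The groups did not overlap in any model, although KPC cachectic library 2 lay barely above its controls. The mean change was 0.89 ± 0.14 (SE), or 1.85-fold (adjusted p = 0.0011), and that in C26 was 1.25 ± 0.28 (adjusted p = 0.012). Eif4g1, the main scaffold by level at 202 per exon length in controls, changed by 0.22 in the mean (adjusted p = 0.10), and passed without KPC cachectic library 2, LLC cachectic library 2 or the pair of libraries named above. The other 4 genes of the group did not pass: Eif4e2, whose product competes for the cap, Eif4g2, which encodes the eIF4G-like DAP5, Eif4enif1, which encodes the eIF4E transporter, and Eif4e3, with a mean change of 0.04. In all, 1 of 7 genes of the group rose and 1 fell in the mean, against 27.3% and 13.8% of all genes.

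The helicase group had 3 of 5 genes that rose in the mean (27.3% of all genes did). Eif4a1, one of the eIF4A helicases, changed by 0.37 (adjusted p = 0.024), Eif4b, its cofactor, by 0.37 (0.032) and Eif4a3, the helicase of the exon junction complex, by 0.26 (0.026). After centring 1 of 5, Eif4a1, rose (19.8% of all genes did). Eif4a2, the more abundant paralogue in these controls at 132 per exon length against 38.9 for Eif4a1, did not pass and went opposite ways. It was 7.99 and 8.16 in KPP controls and 7.53 and 7.82 in KPP cachectic libraries, but 7.96 and 7.84 against 8.18 and 8.63 in C26 and 7.90 and 7.89 against 9.02 and 8.11 in LLC. The cachectic libraries were thus below the controls in KPP and above them in C26 and LLC, with changes of -0.40, 0.50 and 0.67. Reads of Eif4a1 are uncertain, since 65.3% of its 50-base windows also occur in other genes, most in the pseudogene Eif4a-ps4.

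The eIF3 complex moved as a group, with 12 of 14 subunit genes rising in the mean (27.3% of all genes did) and all 14 positive. After centring 8 rose (19.8% of all genes did). Their median mean change was 0.36, against 0.10 for all genes. In C26, 6 rose (23.2% of all genes did) and none after centring (6.99%), with a median change of 0.64 against 0.28 for all genes. In LLC the median was 0.60 with no call (3.42% of all genes rose), and 1 after centring (3.6%). The difference between the 2 LLC cachectic libraries was large: the median subunit was 0.92 above the controls in library 1 and 0.16 above in library 2, though all 14 lay above the control mean in both. In KPC the median was 0.43 in library 1 and -0.01 in library 2, where 7 of 14 lay above.

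**Figure D4:**
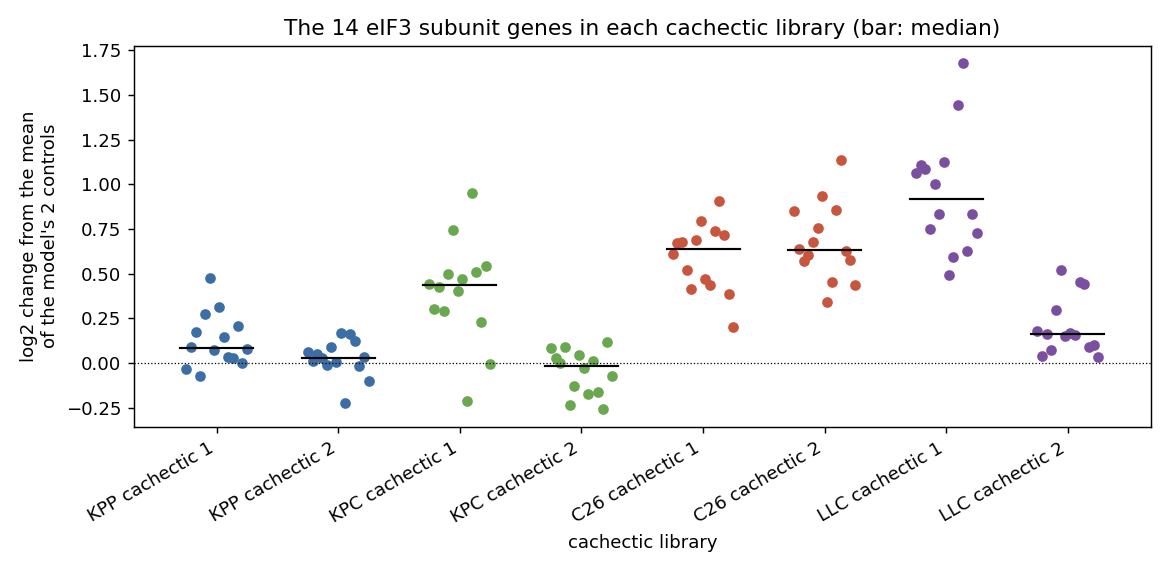
Each point is one eIF3 subunit gene, plotted as its log2 change from the mean of the model's 2 controls in each cachectic library, with a bar at the median of 14. Both C26 medians lie at 0.64 and 0.63, those of LLC at 0.92 and 0.16, and those of KPP at 0.09 and 0.03.

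Eif3f, whose product is a substrate of the atrophy ligase atrogin-1 in mouse muscle cells, had values of 5.604 and 5.495 in KPP controls and 6.027 and 5.640 in cachectic libraries, and of 5.48 and 5.51 against 6.24 and 5.36 in KPC. It went from 5.62 and 5.56 to 6.28 and 6.35 in C26 and from 5.58 and 5.30 to 6.27 and 5.96 in LLC. The groups overlapped in KPC only. Its mean change was 0.50 ± 0.12 (SE; adjusted p = 0.0062) and that in C26 was 0.72 (adjusted p = 0.038), kept in 8 of 16 fits that left out 1 library. Eif3j1 and Eif3j2, copies of the gene of the loosely bound subunit eIF3j, had the largest mean changes of the complex, 0.58 each (adjusted p = 0.0094 and 0.011). They cannot be separated with certainty, since 91.8% of the windows of Eif3j2 also occur in other genes, most in Eif3j1. Eif3g, a subunit needed for scanning, changed by 0.87 in C26 (adjusted p = 0.023), and Eif3d, whose exons overlap a gene of the other strand over 43.3% of their length, by 0.56 (0.041, kept in 4 of the 16). Eif3i and Eif3m were the 2 subunits that did not pass in the mean, and both had changes of -0.04 to -0.01 in KPP and 0.32 to 0.44 in C26 and LLC.

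Start codon selection and subunit joining had 4 of 8 genes that rose in the mean (27.3% of all genes did), and the same number after centring (19.8%). Eif1, whose product guards the choice of start codon, stood at 5.65 and 5.41 in C26 controls and 6.48 and 6.67 in cachectic libraries, and at 5.68 and 5.64 against 6.83 and 5.96 in LLC. It changed little in the other models, by 0.13 in KPP and 0.04 in KPC, neither past the test. The C26 change was 1.05 ± 0.22 (SE; 2.07-fold, adjusted p = 0.0096) and the mean change 0.49 (adjusted p = 0.0058). Eif1a, which encodes a form of the scanning factor eIF1A, went from 2.96 and 3.15 to 4.21 and 4.28 in C26, a change of 1.19 ± 0.22 (2.29-fold, adjusted p = 0.0061). Its paralogue Eif1ax, at 41.2 per exon length in controls against 6.18 for Eif1a, went from 6.23 and 6.13 to 6.12 and 6.08, slightly below both controls, and passed no test.

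Eif5, the activator of GTP hydrolysis by eIF2, and Eif5b, the GTPase of subunit joining, also rose in the mean, by 0.22 and 0.42 (adjusted p = 0.019 and 0.010), and in C26 by 0.55 and 0.69 (0.015 and 0.035). Neither C26 call passed after centring (adjusted p = 0.071 and 0.12), and they were kept in 12 and 10 of the 16 fits that left out 1 library. Eif5b went from 5.71 and 5.67 to 6.42 and 6.34 in C26, and 16.8% of its exon length overlaps a gene of the other strand. Eif6, whose product keeps the large subunit from joining too early, had a mean change of 0.30 that did not pass (adjusted p = 0.072). In LLC it was 5.13 in cachectic library 1 and 4.00 in library 2, against 3.95 and 4.03 in controls.

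Of the 6 genes of eIF2 and its helpers, 2 rose in the mean (27.3% of all genes did) and 1 after centring (19.8%). Eif2s2, the β subunit, rose by 0.29 (adjusted p = 0.038) and Eif2d, an alternative initiator tRNA factor, by 0.23 (0.013). After centring Eif2d alone rose. Eif2s1, which encodes the α subunit that the stress kinases phosphorylate, was 4.835 and 5.001 in KPP controls against 4.495 and 4.561 in cachectic libraries, and 4.81 and 4.53 against 5.24 and 5.18 in C26. The KPP libraries were below and the C26 libraries above their controls, the change over the models was 0.07 (adjusted p = 0.62), and its sign turned under other scalings. Of 5 eIF2B genes, Eif2b2 and Eif2b5 rose in the mean, by 0.20 and 0.31 (adjusted p = 0.029 and 0.044). Neither did after centring, and the shares of all genes are the same 27.3% and 19.8%. Eif2b5, the catalytic subunit, went from 5.51 and 5.47 to 6.12 and 6.17 in C26, a change of 0.65 (adjusted p = 0.0498) that was kept in 4 of 16 fits that left out 1 library and did not pass after centring (0.17). It stood at 6.33 and 5.46 in LLC cachectic libraries against 5.49 and 5.45.

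Of the 4 kinases that phosphorylate eIF2α, 1 rose in the mean (27.3% of all genes did), Eif2ak4, which encodes the amino acid sensor GCN2. It was 3.24 and 3.51 in KPP controls and 3.97 and 4.02 in cachectic libraries, 3.37 and 3.31 against 3.67 and 3.95 in C26, and 3.27 and 3.37 against 3.73 and 3.80 in LLC. These groups did not overlap, while in KPC cachectic libraries at 3.75 and 3.29 overlapped the controls at 3.19 and 3.36. The mean change was 0.45 ± 0.08 (SE; 1.36-fold, adjusted p = 0.0022), its largest being 0.62 in KPP (adjusted p = 0.068), and the call was kept in all 16 fits that left out 1 library. Mean changes were 0.09 for Eif2ak1, the haem-regulated kinase, 0.03 for Eif2ak3, the endoplasmic reticulum kinase PERK, and -0.24 for Eif2ak2, the kinase PKR activated by double-stranded RNA, with adjusted p of 0.31, 0.80 and 0.11. By level per exon length Eif2ak1 led in controls at 15.9, against 3.81 for Eif2ak4.

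Within elongation factor 1, 2 of 6 genes rose in the mean (27.3% of all genes did) and the same number after centring (19.8%). Eef1b2, a nucleotide exchange subunit, had the smallest adjusted p of the 65 genes in the mean, in C26 and in LLC. It was 5.55 in both KPP controls and 6.09 and 5.95 in cachectic libraries, 5.43 and 5.33 against 6.06 and 6.26 in C26, and 5.48 and 5.34 against 6.04 and 5.84 in LLC. In KPC, cachectic libraries at 5.64 and 5.56 lay between the controls at 5.54 and 5.71. The mean change was 0.44 ± 0.06 (SE; 1.35-fold, adjusted p = 0.00076), that in C26 was 0.78 ± 0.13 (1.71-fold, adjusted p = 0.0039), and that in LLC 0.53 ± 0.13 (adjusted p = 0.033). The C26 call was the only one of 17 kept in all 16 fits that left out 1 library, whereas the LLC call was lost in 9 of the 16 and without the pair of libraries that stood apart, at 0.43 (adjusted p = 0.060). Its exons overlap other genes over 7.31% of their length, among them Ndufs1 on the other strand.

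The other exchange subunits and eEF1A2 did not follow. Eef1d went from 5.76 and 5.91 to 5.54 and 5.49 in KPP but from 5.84 and 5.90 to 6.25 and 6.30 in C26, opposite directions without overlap, and neither passed the test (changes of -0.32 and 0.41, adjusted p = 0.24 and 0.052). Eef1g, a structural subunit, changed by -0.27 in KPP and 0.17 in C26, with no call and with 64.3% of its windows shared with other genes. Eef1e1, whose product sits in the aminoacyl-tRNA synthetase complex, was lower in KPC at 2.13 and 2.60 against 2.73 and 2.76. It was higher in KPP at 2.66 and 2.61 against 2.46 and 2.47, and in C26 at 2.67 and 2.50 against 2.28 and 2.11, with no call in any model.

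The 2 forms of eEF1A were compared directly because Eef1a2 is the form of adult muscle fibres and Eef1a1 that of most other cells. Per exon length Eef1a2 was the most abundant of the 65 genes in controls, at 925 (797 to 1071 over 8 libraries), and Eef1a1 stood at 270 (232 to 343). Eef1a1 went from 7.97 and 8.24 to 8.95 and 9.01 in C26, from 7.71 and 7.78 to 8.27 and 8.39 in LLC, from 7.85 and 7.93 to 8.62 and 8.02 in KPC, and from 7.70 and 7.90 to 8.45 and 7.88 in KPP. The groups overlapped in KPP only. Its mean change was 0.56 ± 0.10 (SE; 1.48-fold, adjusted p = 0.0020) and that in C26 0.87 (adjusted p = 0.014), with 59.2% of its windows shared with other genes, most with Gm13456. Eef1a2 changed by 0.10 in the mean (adjusted p = 0.26), from 9.60 and 9.61 to 9.64 and 9.56 in C26. It was not flat in every model. In KPP it went from 9.19 and 9.17 to 9.10 and 9.04, and in LLC from 9.57 and 9.50 to 10.05 and 9.72. The groups did not overlap in KPP or LLC, in opposite directions, and neither change passed the test.

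The log2 ratio of Eef1a1 to Eef1a2 reads was higher in both cachectic libraries than in both controls in KPP, KPC and C26 and overlapped in LLC. In controls it ran from -1.87 to -1.27. Cachectic libraries gave -0.65 and -1.16 in KPP, -1.04 and -1.27 in KPC, -0.69 and -0.55 in C26, and -1.78 and -1.33 in LLC. The mean change was 0.46 (0.47 in KPP, 0.25 in KPC, 0.88 in C26 and 0.24 in LLC), with p = 0.0031 by the two-sided exact permutation test within models and 0.0046 after adjustment over 2 ratios. Macrophage and endothelial markers come from cells outside the fibre, and their median changes were also largest in C26, at 1.28 and 0.90. The endothelial genes were mixed, with 4 of 5 positive in C26 and 2 of 5 in KPP, where their median change was -0.19. The part of both marker lists in the ratio was not tested.

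**Figure D5:**
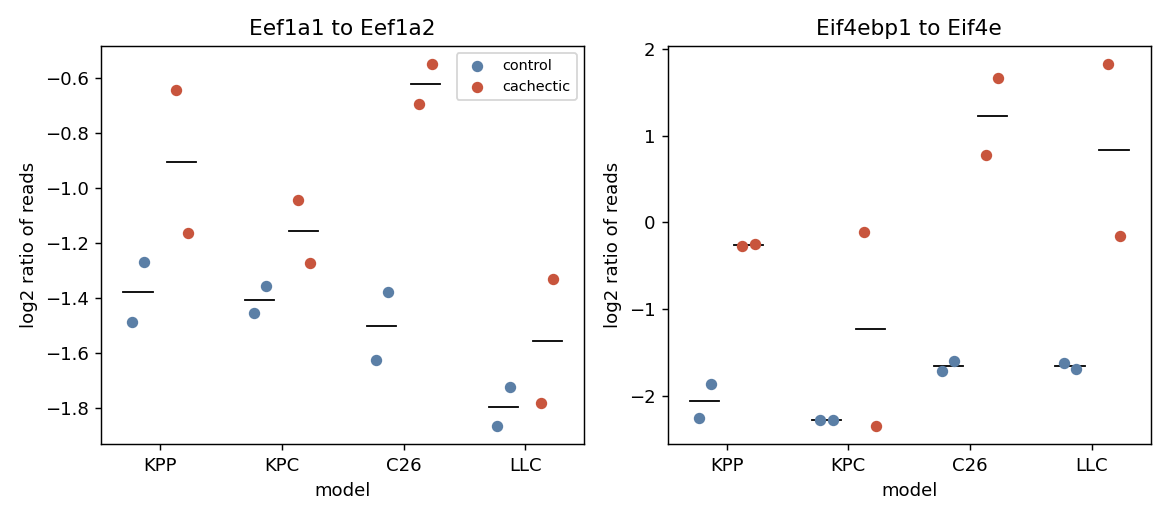
Log2 ratio of reads of Eef1a1 to Eef1a2 (left) and of Eif4ebp1 to Eif4e (right) in each library by model, controls in blue and cachectic in red, with bars at the mean of 2. Controls of the right panel lie between -2.28 and -1.60, and 7 of 8 cachectic libraries lie above them.

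Eef2, the translocase and after Eef1a2 the most abundant factor at 751 per exon length, was above the controls in both cachectic libraries of every model. It went from 9.76 and 9.79 to 10.09 and 10.02 in KPP, from 9.65 and 9.55 to 10.55 and 9.66 in KPC, from 9.98 and 9.90 to 10.21 and 10.77 in C26, and from 9.88 and 9.72 to 10.49 and 10.20 in LLC. The margin in KPC was thin, with library 2 just above the higher control. On average it changed by 0.47 ± 0.12 (SE; 1.38-fold, adjusted p = 0.011), and no single model passed. Eef2k, which encodes the kinase that inactivates eEF2, had a mean change of 0.11 (adjusted p = 0.36).

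Eefsec, the elongation factor for selenocysteine, rose by 0.27 in the mean (adjusted p = 0.0099), with changes of 0.34, 0.51, 0.23 and 0.02 in KPP, KPC, C26 and LLC. KPC was the model of its largest change, from 1.85 and 2.03 to 2.47 and 2.42, with both cachectic libraries above both controls. Neither gene of eIF5A, the hypusine-bearing factor that relieves stalled ribosomes, passed: Eif5a changed by 0.11 in the mean (adjusted p = 0.28), and Eif5a2 was the least expressed of the 65, at 1.28 per exon length. The 3 methyltransferase genes Eef1akmt1, Eef1akmt2 and Eef2kmt passed no test.

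Differences between the models were tested directly. No factor gene passed the F test of the difference between the 4 effects, against 0.116% of all genes, and 6 had an unadjusted p under 0.05, against 15.9% of all genes. The smallest adjusted p was 0.169, for Eef1b2. In 18 genes the cachectic libraries lay above the controls in one model and below them in another, 12 of them above in C26 and below in KPP. Of all genes 59.6% lay above in C26 and 29.7% below in KPP, and the share that did both was not counted. The smallest adjusted p of any of the 6 pairs of models was 0.107, for Eef1d between KPP and C26. The apparent contrast of KPP and KPC together with C26 and LLC together was not fitted as a test of its own. The count moved with the libraries used. Without KPC cachectic library 2 and LLC cachectic library 1 together, 23 genes passed the F test against 14.8% of all genes, and without LLC cachectic library 2 alone 19 passed against 11.7%. In these fits a lone library is assumed to vary like the other groups.

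The counts rested on few libraries too. Without KPC cachectic library 2 and LLC cachectic library 1 together, an alternative chosen after the data were seen, 24 genes rose and 2 fell in KPC, against 12.9% and 8.84% of all genes. In the same fit 45 rose and none fell in C26 (38.8% and 9.68% of all genes), and 3 rose and none fell in LLC (3.5% and 3.47%). In KPP 4 rose and 4 fell (8.18% and 10.2%), and in the mean 39 rose and 3 fell (34.5% and 17.2%). Without the C26 model, 5 genes rose in the mean against 6.21% of all genes, and none fell against 8.38%. Of the 32 genes called in the mean, 18 stayed called in each of the 16 fits that left out 1 library, among them Eif4ebp1, Eif4g3, Eef1b2, Eef1a1, Eef2, Eif2ak4, Eif1, Eif1a, Eif5b and Eif3f.

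Related translation genes outside the set were read from lists of the neighbouring pathways, to be set beside the 27.3% of all genes that rose and the 13.8% that fell in the mean, or 19.8% and 18.8% after centring. Of 16 genes of the mTORC1 pathway, 6 rose and 1 fell in the mean, and 4 rose and 2 fell after centring. The largest rise was in Sesn1, whose product Sestrin 1 restrains mTORC1, by 1.41 (adjusted p = 0.00072), and it rose in C26 and LLC too (1.61 and 1.47, adjusted p = 0.016 and 0.047). Mtor itself rose by 0.33 (adjusted p = 0.010), Tsc1, part of a brake on mTORC1, by 0.43 (0.0049), and Mlst8, a subunit of the complex, fell by 0.30 (0.0081). In C26 5 of the 16 rose (23.2% of all genes did), and 2 rose and 1 fell after centring (6.99% and 9.25%). None was called in KPP or KPC.

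Of 10 genes for poly(A)-binding protein and regulators of eIF4F, 4 rose in the mean, and 3 rose and 1 fell after centring. Those that rose in the mean included Rps6ka3, a ribosomal S6 kinase, by 0.39 (adjusted p = 0.0053), and the eIF4E kinase genes Mknk1 and Mknk2 by 0.38 and 0.84 (0.011 and 0.014). Of 5 measured genes for eIF2 phosphatase and stress factors, Ppp1r15a, the inducible phosphatase subunit GADD34, and Atf4, the transcription factor translated when eIF2α is phosphorylated, rose by 0.66 and 0.42 (adjusted p = 0.015 and 0.024), and Ddit3, the stress factor CHOP, fell by 0.56 (0.012), with the same counts after centring. Of 7 measured release and recycling factors 2 rose in the mean, Etf1 and Abce1, by 0.38 and 0.28 (adjusted p = 0.013 and 0.047), and 1 rose and 1 fell after centring, when Abce1 did not pass (adjusted p = 0.084). Of 8 genes for modification of eIF5A and eEF2, 1 rose, Dhps, which encodes deoxyhypusine synthase, by 0.37 (adjusted p = 0.0059), and 1 after centring.

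The factors of mitochondrial translation went the other way from those of the cytosol. Of 8 genes none rose and 3 fell in the mean, 6 after centring, with all 8 negative. Tsfm, the mitochondrial exchange factor, fell by 0.47 (adjusted p = 0.0051), Tufm, the mitochondrial counterpart of eEF1A, by 0.32 (0.0071) and Mtif2, an initiation factor, by 0.26 (0.021). Their summed level was 311 to 363 reads per 1000000 in controls and 252 to 335 in cachectic libraries, while that of the 65 cytosolic factors was 5683 to 6127 in controls and 5666 to 9463 in cachectic libraries.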

How the data were processed

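The authors deposited 1 table of log2 values, made with featureCounts 1.4.5 and limma on GRCm38 per the submitters' processing notes; the aligner, annotation, strand handling and filter were not given in the sources used here. Raising 2 to each value gave whole reads for 100% of values (tolerance 1e-04), so the deposited log2 values are log2 reads per 1000000, after adding 0.5 to every count and 1 to every total, and were not scaled further between libraries. A high share of abundant transcripts therefore lowers all others. Columns were matched by the number in each sample's description; 0 columns were unused.

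One limma fit (limma 3.58.1, R 4.3.3) on all 16 libraries gave 8 group means with a shared, trend-moderated spread (8 residual degrees of freedom). The filter, a log2 value of 0 or more in 2 or more libraries, kept all 12021 genes. Contrasts were cachectic minus control per model, their mean, and an F test of their difference, two-sided, Benjamini-Hochberg over all genes, called at adjusted p under 0.05. The median SE of the 65 genes' changes was 0.193 within a model. The code was tested on simulated data. Ratios were tested by exact permutation within models. Exon lengths and overlaps came from GENCODE vM21.

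The genes named were the 8 largest rises and falls among called factors per comparison, a fixed set of key factors, the extremes of each role, and up to 3 called genes per neighbouring pathway list. A few others in small groups were named after their values were seen. Members and lists were chosen with earlier results of these data known. Alternatives were other scalings, filters, variance models, voom weights, a replicate block, single models, and each library left out.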

Additional observations from a re-analysis of the deposited data

How the results depend on the processing

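Direction and call were kept in most single-gene checks, and both ratios passed under every alternative run. With 2 libraries a group, calls within a model were the least stable. The counts that follow are of factor genes alone, and the share of all genes called moved too. In C26 it was 23.2% higher and 5.12% lower as deposited, and 6.99% and 9.25% after centring. For KPP (0 genes called), quantile normalization gave 1, KPP libraries alone 4, an adjusted p under 0.10 gave 2, and leaving out KPC cachectic 2 and LLC cachectic 1 together gave 8. For KPC (0), the last gave 26. For C26 (17), median centring and the median of ratios each gave 7, quantile normalization 11 (10 higher, 1 lower), C26 libraries alone 37, the threshold of 0.10 gave 34 and the joint omission 45. For LLC (1), the same settings gave 4, 4, 2, 0, 13 and 3. For the mean (32), the median of ratios gave 21 (18 higher, 3 lower), quantile normalization 26 (22 higher, 4 lower) and the fit without C26 gave 5. For the difference between models (0), the joint omission gave 23.

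Leaving out 1 library at a time gave 0 to 4 genes in KPP, 0 to 3 in KPC, 1 to 38 in C26, 0 to 41 in LLC, 20 to 49 in the mean and 0 to 19 for the difference. The C26 count was 1 to 5 without one of the C26 libraries, 28 without either KPC cachectic library and 38 without either LLC cachectic library. The LLC count was 41 without LLC cachectic 2, 15 without either KPC cachectic library and 0 without any single control library or LLC cachectic 1. The mean count was 20 without KPC cachectic 1 or KPC control 2, 21 without KPP control 1 and 49 without LLC cachectic 2. A lone library was assumed to vary like the other groups. The share of all genes called was not counted for most of these fits, so the swings cannot be taken as particular to the factor genes. The joint omission was chosen after seeing the data. The cause of these shifts was not tested.

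The genes Eif4e3, Eif2s1, Eif2ak1 and Eif2ak3, which passed no test in the mean, changed sign. Eif4e3 was -0.029 with centring, -0.042 with the median of ratios, -0.034 with quantile normalization and -0.044 without LLC. Eif2s1 was -0.0011, -0.015 and -0.026 under those scalings, -0.085 without C26, -0.040 to 0.183 without 1 library (lowest without LLC cachectic 1) and -0.014 under the joint omission. Eif2ak1 was -0.016 with quantile normalization. Eif2ak3 was -0.045, -0.059 and -0.046 under the scalings, -0.103 without C26 and -0.019 to 0.073 without 1 library (lowest without LLC cachectic 2).

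Replicate numbers did not pair samples: deviations of same-numbered libraries correlated at 0.089, -0.003, -0.037 and 0.021 in KPP, KPC, C26 and LLC. A replicate block gave 0, 0, 16 and 0 genes in these models, 31 in the mean and 0 for the difference.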
